A study of Mus musculus with 24 samples.

Results

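The 77 genes described here encode subunits of the mitochondrial respiratory chain and of the ATP synthase that are made from nuclear DNA. They were chosen by mouse gene symbol (Ndufa, Ndufb, Ndufc, Ndufs or Ndufv with a number, Sdha to Sdhd, Uqcr, Cox4 to Cox8 and Atp5), as protein-coding genes with a mean count of at least 20 over the 24 libraries. Of 87 protein-coding genes with such symbols, 77 passed, out of 36528 genes in each file. Complex I had 37 members, complex II 4, complex III 8, complex IV 13 and complex V 15. The 6 pseudogenes with such symbols were left out, and the symbol rule also leaves out Ndufab1 and Cyc1, which are subunits too.

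The respiratory chain sits in the inner mitochondrial membrane. Complex I takes electrons from NADH and complex II takes them from succinate. Both pass them through coenzyme Q to complex III, which hands them by cytochrome c to complex IV, where oxygen is reduced. Complexes I, III and IV pump protons, and complex V, the ATP synthase, uses the proton gradient to make ATP. A few catalytic subunits are encoded by mitochondrial DNA, and all others come from genes such as these. In the intestinal epithelium, absorptive enterocytes are rich in mitochondria, and the promoters of respiratory chain genes are textbook targets of the factors NRF1, GABP and YY1.

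Polyadenylated RNA was sequenced from primary organoids of mouse small intestine, which are self-organising cultures of the epithelium. Each of 6 groups held 4 libraries, from exposure to DMSO, dFz7-21 or Fz7-21S for 6 h or 24 h. The series calls dFz7-21 a peptide that blocks Frizzled 7, a receptor for Wnt ligands, and asks how blocking it changes expression. DMSO is the solvent control. Of Fz7-21S the labels give the name alone, and they state no dose, medium, mouse strain, genotype or age. Whether the 4 replicates came from different mice or cultures is not said, and the p-values here describe variation among these samples, part or all of it possibly technical.

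Total counts ran from 20446610 to 33102993 per library, and all 77 members were deep enough to test. Epithelial markers were abundant in every library (Epcam, Cdh1, Krt8, Krt18, Vil1 and Cdx2 summed to 6157 CPM or more), where CPM is the count scaled to a common library size after TMM normalisation. In 3 libraries the 8 mesenchymal markers summed to 190, 161 and 913 CPM (replicates 1 and 2 of DMSO at 6 h, replicate 3 of dFz7-21 at 24 h), against 4.65 to 14.5 CPM in the other 21.

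One library stood apart in the very genes at issue. In Fz7-21S 24 h replicate 4 the median member lay 0.81 above its mean over 24 libraries on the log2 scale, while the other 3 libraries of that group lay at most 0.16 above theirs. Cytosolic ribosome genes, which are also short and abundant, lay 0.86 above their mean in that library, other genes under 1000 bases lay 0.54 above, and genes of 2500 bases and over lay 0.21 below. Members are short, with a median gene model of 756 bases against 3044 bases over all genes tested, so counts of members are given with and without this library, and values of single genes come from all 24 libraries unless stated. Leaving it out raised each member's log2 change between dFz7-21 and DMSO at 24 h by 0.02, and the change over time in DMSO fell by 0.01. All 34 members called against DMSO at 24 h, all 29 called over time and all 3 called between the times were also called without it.

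**Figure D1:**
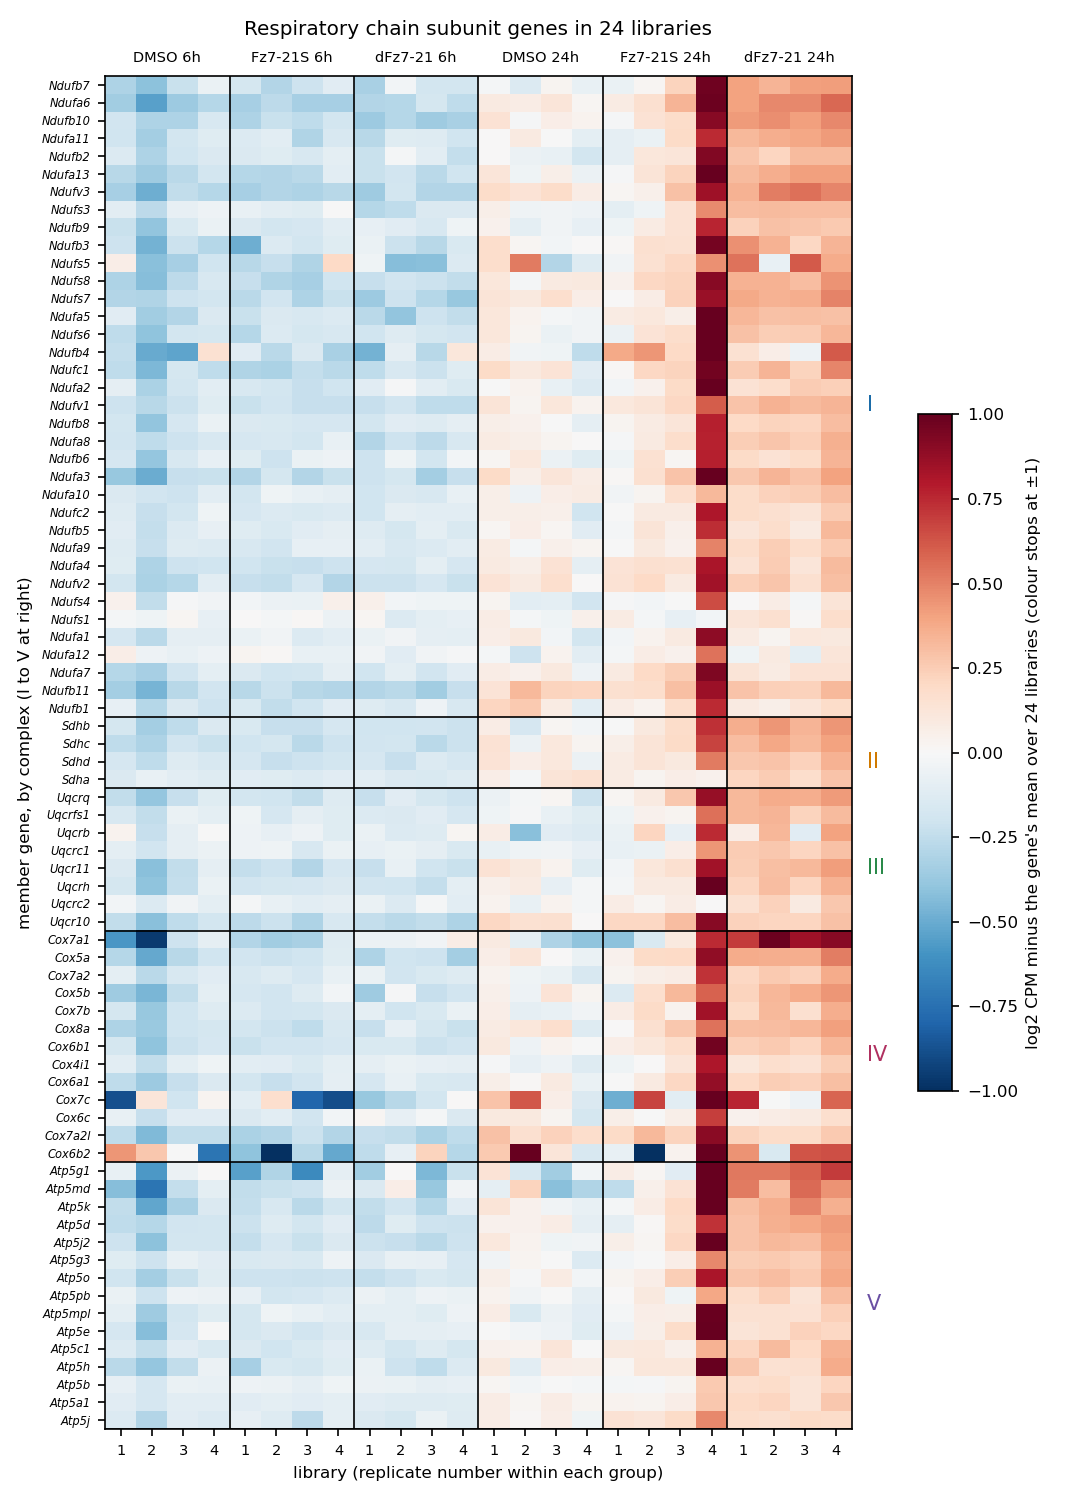
Each row is 1 of 76 members, grouped by complex and ordered within a complex by its difference between dFz7-21 and DMSO at 24 h; each column is 1 library. Colour gives log2 CPM minus the gene's mean over the 24 libraries. The 6 h libraries are mostly blue, the dFz7-21 24 h libraries mostly red, and replicate 4 of Fz7-21S at 24 h is the darkest column.

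Promoter sequence is a feature that some of these genes share and that the choice of members did not use. RefSeq promoter windows on GRCm38.p6 (250 bases before to 50 after the annotated start) were at hand for 65 of the 77 members. On either strand, the NRF1 core GCGCATGC was present in 8 of the 65 (12.3%), against 3.05% of 27025 genes with a window. The ETS core CCGGAAG, to which GABP binds, was present in 16 (24.6%, against 9.93%), the YY1 core AAGATGG in 11 (16.9%, against 7.28%) and the general CCAAT box in 28 (43.1%, against 41.1%). A match of letters is a description and not a measured binding site. The 27025 genes outnumber the 15429 tested here, so they include genes with few or no reads. No share was taken among tested genes or among promoters of like base composition. The 6 members whose NRF1 core lies in the 180 bases before the start are printed below 5′ to 3′ towards the gene, with Cox7a1 beside them, since it changed most among the members and holds none of the 3 cores in these bases. Capitals mark the NRF1 core, and in Cox6a1 also an ETS core on the other strand, close to the start. The palindromic GCGCATGCGC holds the core on both strands.
Sdhb (chr4:140961091-140961270, plus strand): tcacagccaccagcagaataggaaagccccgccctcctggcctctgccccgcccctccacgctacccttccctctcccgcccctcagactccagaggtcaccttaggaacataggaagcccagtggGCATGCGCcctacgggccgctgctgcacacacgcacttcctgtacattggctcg
Ndufa6 (chr15:82354292-82354471, minus strand): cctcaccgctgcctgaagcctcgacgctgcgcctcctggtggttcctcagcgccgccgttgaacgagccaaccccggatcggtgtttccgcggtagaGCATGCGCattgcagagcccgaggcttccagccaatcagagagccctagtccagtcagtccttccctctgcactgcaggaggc
Ndufa8 (chr2:36049339-36049518, minus strand): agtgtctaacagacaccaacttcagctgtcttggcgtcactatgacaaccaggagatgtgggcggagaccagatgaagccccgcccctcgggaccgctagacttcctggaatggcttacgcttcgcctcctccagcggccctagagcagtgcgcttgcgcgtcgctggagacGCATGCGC
Ndufa11 (chr17:56717582-56717761, plus strand): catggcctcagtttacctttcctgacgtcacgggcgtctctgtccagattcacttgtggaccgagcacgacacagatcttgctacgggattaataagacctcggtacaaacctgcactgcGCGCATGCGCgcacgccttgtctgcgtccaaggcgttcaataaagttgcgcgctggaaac
Atp5k (chr5:108434400-108434579, minus strand): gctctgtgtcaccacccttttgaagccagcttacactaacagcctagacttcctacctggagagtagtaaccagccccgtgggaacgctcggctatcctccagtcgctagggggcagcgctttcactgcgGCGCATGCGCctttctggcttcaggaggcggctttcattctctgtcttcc
Cox6a1 (chr5:115348959-115349138, minus strand): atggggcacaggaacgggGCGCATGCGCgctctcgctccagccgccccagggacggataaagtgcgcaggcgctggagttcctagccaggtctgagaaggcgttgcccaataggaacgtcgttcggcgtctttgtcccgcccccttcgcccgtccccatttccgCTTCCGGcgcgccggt
Cox7a1 (chr7:30183991-30184170, plus strand): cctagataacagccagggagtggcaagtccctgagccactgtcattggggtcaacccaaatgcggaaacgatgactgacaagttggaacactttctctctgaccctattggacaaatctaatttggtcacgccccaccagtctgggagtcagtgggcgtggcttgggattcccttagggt

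Levels between genes can be compared only per length, for which the deposited RPKM (reads per kilobase of gene and per sequencing depth, scaled by sample) was used in DMSO at 24 h. Catalytic and membrane parts of the ATP synthase led: Atp5b, the beta subunit, at 1566 ± 25.0 RPKM (SD, n = 4), Atp5g3, a ring subunit c gene, at 1004 ± 46.7, and Atp5a1, the alpha subunit, at 869 ± 21.0. Cox4i1 stood at 975 ± 33.0 and Cox6b1 at 836 ± 38.7 RPKM. Of the genes for subunit c, Atp5g1 was at 6.39 ± 0.907 RPKM, far under Atp5g3, and Atp5g2 was under the threshold of 20 with a mean count of 8.79. The lowest members were Cox6b2, the testis form of Cox6b, at 2.20 ± 1.29 RPKM and Cox7c at 2.73 ± 0.628 RPKM.

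Some low values belong to genes with near-identical copies, and reads that align to more than 1 place are not in the deposited counts. Of the runs of 50 bases in the transcripts of Cox7c, 23% also occur in transcripts of other genes, mostly processed pseudogenes. The share was 37.0% for Ndufb4, 39.7% for Ndufs3, 43.4% for Uqcrb, 47.6% for Atp5o, 38.3% for Atp5g2 and 84.8% for Atp5l. The sharing genes were not all pseudogenes: those of Atp5o were led by an antisense gene, and those of Ndufs3 included Kbtbd4. Runs shared by overlapping genes at the same place would not make reads align to more than 1 place, and they were not told apart from copies elsewhere. The level of those with copies elsewhere is therefore uncertain, and 32 of the 76 members matched to transcripts share no such run. The spans of 23 members overlap another RefSeq gene (Uqcrc2 with Pdzd9, Ndufb11 with Rbm10, Cox7a2 with Tmem30a), and whether counting used strand is not given in the sources used here. Just inside the threshold lay Cox6b2 (mean count 25.5) and Cox7c (27.5), and just outside it lay Atp5l (17.6) and Atp5g2. The tissue-restricted paralogs Cox8c and Cox7b2 had a mean count of 0, Cox8b of 0.125, Cox4i2 of 0.333, Cox6a2 of 2.67 and Ndufa4l2 of 6.62.

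At 24 h, respiratory chain genes were higher with dFz7-21 than with DMSO across all 5 complexes, by small amounts. With edgeR's quasi-likelihood test over all genes, 34 of 77 members rose and 0 fell at an adjusted p (Benjamini-Hochberg) under 0.05, where 18.2% of all genes tested rose and 17.7% fell. The unadjusted p was under 0.05 for 47 members upward and 0 downward, and for 3445 and 3447 of all 15429 genes tested. DESeq2 called 44 members up and 0 down, where it called 20.7% of all genes up. Without Fz7-21S 24 h replicate 4, 66 rose and 0 fell, among them all 34, against 24.8% and 21.4% of all genes. The median log2 change was 0.25 (0.27 without that library) for members and -0.01 (0.02) for all genes. In 61 of 77 members every dFz7-21 library lay above every DMSO library, against 19.4% of all genes tested. As a share of all counts, the members took 2.24% to 2.37% with dFz7-21 and 1.99% to 2.11% with DMSO at 24 h. In bulk RNA, more cells of a type and more RNA per cell cannot be told apart.

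**Figure D2:**
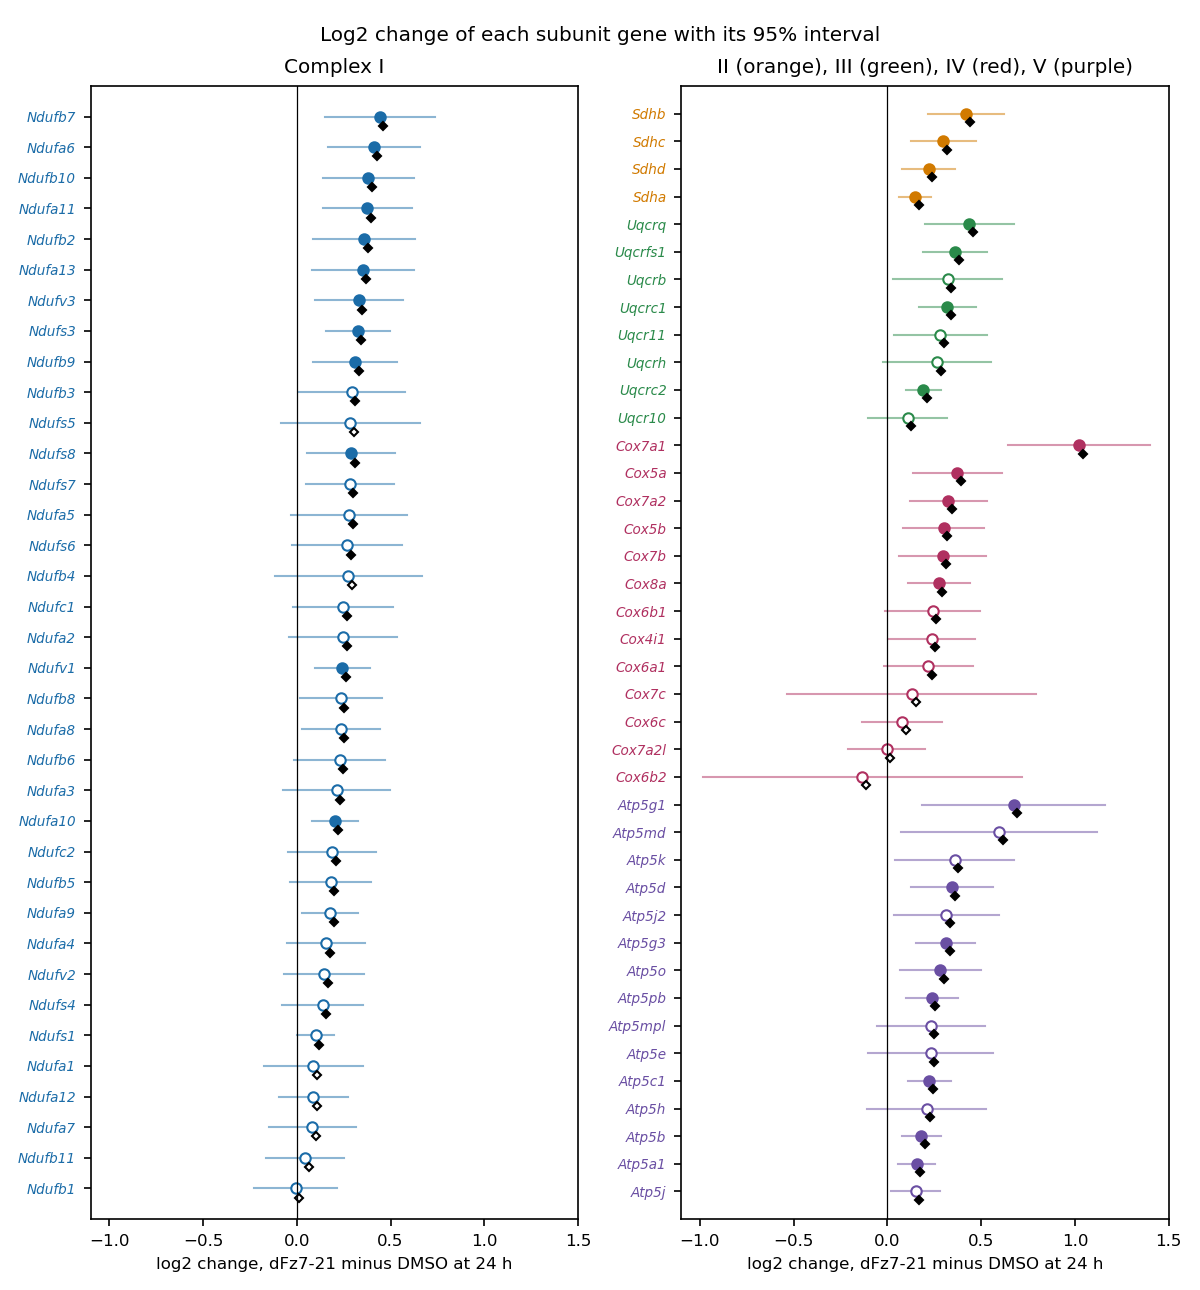
Points give the log2 change of 76 members with dFz7-21 against DMSO at 24 h from all 24 libraries, each with its 95% interval, filled where the adjusted p was under 0.05; diamonds below them give the change without Fz7-21S 24 h replicate 4, filled by the same rule. Nearly all points lie right of 0, most between 0 and 0.5, and Cox7a1 lies farthest right at 1.02.

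Cox7a1 had the largest change among the members. It encodes the heart and skeletal muscle form of subunit 7a of complex IV (Entrez 12865, chr7:30184171-30186030 on GRCm38). At 24 h it stood at 13.8, 16.8, 15.3 and 16.1 CPM with dFz7-21, at 9.09, 8.0, 6.91 and 6.47 CPM with DMSO and at 6.43, 7.69 and 9.11 CPM in Fz7-21S replicates 1 to 3. The dFz7-21 libraries lay above all of these, and only Fz7-21S replicate 4, at 14.3 CPM, reached into their range. The log2 change against DMSO was 1.02 ± 0.18 (SE, 2.03-fold, adjusted p = 1.0e-04; 1.04 without replicate 4). Against Fz7-21S at 24 h it was 0.73 ± 0.18 (adjusted p = 0.0032; 1.02 without replicate 4). At 6 h it stood at 8.21, 8.20, 8.34 and 9.0 CPM with dFz7-21 and at 5.70, 4.41, 7.39 and 8.02 CPM with DMSO, so those groups did not overlap either. The lowest of these, DMSO replicates 1 and 2, are libraries with mesenchymal transcripts. The log2 change at 6 h was 0.41 ± 0.19 (adjusted p = 0.18) and 0.40 ± 0.14 (adjusted p = 0.039) without Fz7-21S 24 h replicate 4. That call was lost with the libraries with mesenchymal transcripts left out as well, where 0 members and 6.6% of all genes were called higher at 6 h. The dFz7-21 24 h library with mesenchymal transcripts, replicate 3, lay within the range of the other 3. Of 4 striated muscle markers, Ckm, Des and Myh7 reached at most 0.185, 0.445 and 0.527 CPM in any library, while Acta1, a muscle actin, was at 97.5 to 390.2 CPM. Acta1 was also higher with dFz7-21 than with DMSO at 24 h (log2 change 0.97 ± 0.11, adjusted p = 1.3e-07), and what part it has in the Cox7a1 result was not tested.

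The paralogs of Cox7a1 did not share its pattern. Cox7a2, the widely expressed form, stood at 264, 274, 267 and 295 CPM with dFz7-21 and 234, 221, 217 and 204 CPM with DMSO at 24 h, a log2 change of 0.33 ± 0.10 (adjusted p = 0.014). Cox7a2l, which takes part in joining complexes III and IV, stood at 117, 114, 113 and 119.9 CPM with dFz7-21 and 123, 112, 117 and 113 CPM with DMSO. Its groups overlapped, and its log2 change was close to 0, with a 95% interval of -0.21 to 0.20. Cox7a2l differed instead by time: DMSO libraries at 6 h held 83.9, 73.6, 84.2 and 84.3 CPM, all below those at 24 h (log2 change 0.51 ± 0.10, adjusted p = 1.2e-04). The 3 genes of the family thus differed in size and timing of change, although that difference was not itself tested.

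**Figure D3:**
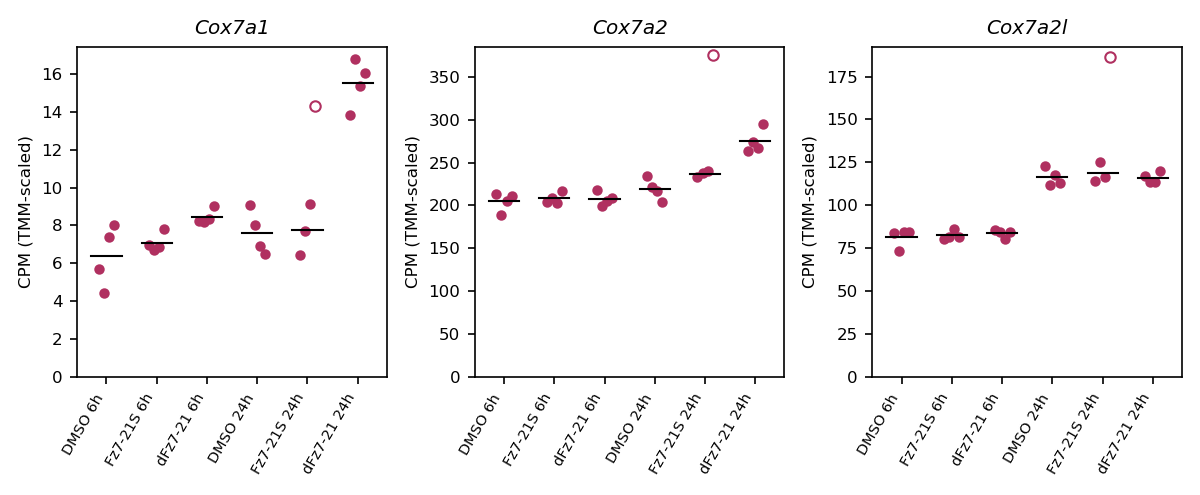
CPM of Cox7a1, Cox7a2 and Cox7a2l in each library by group, with a line at the mean; the open circle is Fz7-21S 24 h replicate 4 and is not in its group's mean. For Cox7a1 the dFz7-21 24 h libraries lie above all others save the open circle, which lies within their range. They lie somewhat above DMSO at 24 h for Cox7a2 and level with it for Cox7a2l.

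In complex I, 12 of 37 members rose at 24 h with dFz7-21 (30 without Fz7-21S 24 h replicate 4) and 0 fell. Ndufs3, a core subunit of the peripheral arm, stood at 67.8, 67.9, 67.7 and 67.7 CPM with dFz7-21 and at 57.1, 53.0, 53.2 and 52.9 CPM with DMSO. The groups were clearly apart, and the log2 change was 0.33 ± 0.08 (adjusted p = 0.0032). The largest called changes were those of Ndufb7 and Ndufa6, accessory subunits. Ndufb7 stood at 141, 135, 142 and 142 CPM with dFz7-21 and at 105, 97.1, 109 and 101 CPM with DMSO (0.44 ± 0.14, adjusted p = 0.018). Ndufa6 stood at 244, 258, 259 and 275 CPM with dFz7-21 and at 197, 195, 201 and 187 CPM with DMSO (0.41 ± 0.12, adjusted p = 0.0088). For both, every dFz7-21 library was above every DMSO library, and without DMSO 24 h replicate 2 Ndufb7 had an adjusted p of 0.0508.

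The core subunits of complex I that bind flavin or iron and sulfur did not move by equal amounts. Ndufv1, which carries the NADH site, rose by a log2 0.24 ± 0.07 (adjusted p = 0.0095), and Ndufs8 rose by 0.29 ± 0.11 (adjusted p = 0.0499, and 0.0551 to 0.123 on leaving out any of 7 of the 8 libraries). Ndufs7 had a log2 change of 0.28 ± 0.11 (adjusted p = 0.054), Ndufv2 of 0.14 ± 0.10 (adjusted p = 0.30) and Ndufs1, the longest member at 3021 bases, of 0.10 ± 0.05 (adjusted p = 0.099). All 3 were called without Fz7-21S 24 h replicate 4, at adjusted p = 4.9e-06, 0.0043 and 0.026. Ndufa4, now counted by many as a subunit of complex IV, had a log2 change of 0.16 ± 0.10 (adjusted p = 0.24).

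All 4 members of complex II, the succinate dehydrogenase that also works in the citrate cycle, rose at 24 h with dFz7-21. Sdhb, the iron-sulfur subunit, stood at 296, 312, 291 and 313 CPM with dFz7-21, at 242, 205, 233 and 225 CPM with DMSO and at 230.1, 246 and 262 CPM in Fz7-21S replicates 1 to 3. The dFz7-21 libraries lay above all the others, save Fz7-21S replicate 4 at 382 CPM. Its log2 change against DMSO was 0.42 ± 0.10 (adjusted p = 0.0017). Sdha, the flavoprotein subunit, has a gene model of 2859 bases and stood at 588, 605, 571 and 616 CPM with dFz7-21 and 530.1, 500.2, 556 and 564 CPM with DMSO. In Fz7-21S it stood at 537, 516, 530.5 and 523 CPM, and replicate 4 lay within the range of the others. The log2 change of Sdha was 0.15 ± 0.04 against DMSO (adjusted p = 0.0058) and 0.18 ± 0.04 against Fz7-21S (adjusted p = 0.0015). The membrane anchors Sdhc and Sdhd rose by a log2 0.30 ± 0.08 and 0.22 ± 0.07 (adjusted p = 0.0078 and 0.016), and Sdhd had an adjusted p of 0.0664 without DMSO 24 h replicate 4.

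In complex III, 4 of 8 members rose (8 without Fz7-21S 24 h replicate 4) and 0 fell. Uqcrfs1, the Rieske iron-sulfur protein, stood at 406, 410.1, 379 and 405 CPM with dFz7-21 and at 316, 322, 308 and 298 CPM with DMSO (0.36 ± 0.08, adjusted p = 0.0014). Uqcrc1, a core protein, stood at 659.8, 664, 641 and 677 CPM with dFz7-21 and at 523, 535, 538 and 520.2 CPM with DMSO (0.32 ± 0.07, adjusted p = 0.0015). In both genes the groups were far apart for their spread. The other core protein, Uqcrc2, rose by less (0.19 ± 0.05, adjusted p = 0.0019), and Uqcrq, a small subunit next to cytochrome b, rose by 0.44 ± 0.11 (adjusted p = 0.0045).

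In complex IV, 6 of 13 members rose (9 without Fz7-21S 24 h replicate 4) and 0 fell. Beside Cox7a1 and Cox7a2 these were Cox5a (0.37 ± 0.11, adjusted p = 0.014), Cox5b (0.30 ± 0.11, adjusted p = 0.029), Cox7b (0.30 ± 0.11, adjusted p = 0.044) and Cox8a (0.27 ± 0.08, adjusted p = 0.0098), all structural subunits around the catalytic core. The calls of Cox5b and Cox7b were lost on leaving out replicate 2 or 4 of DMSO or replicate 4 of dFz7-21 at 24 h (for Cox7b also replicate 3 of DMSO or 2 of dFz7-21), with adjusted p up to 0.0804 and 0.0999, and that of Cox8a without DMSO 24 h replicate 4 (0.0516). Cox4i1, through which ATP regulates the enzyme, stood at 848, 877, 864 and 926 CPM with dFz7-21 and 776, 739, 755 and 717 CPM with DMSO. Although these groups did not overlap, its log2 change of 0.24 ± 0.11 had an adjusted p of 0.11, and 8.2e-06 without Fz7-21S 24 h replicate 4. Cox6a1 and Cox6b1 behaved likewise, with log2 changes of 0.22 and 0.24 (adjusted p = 0.15 and 0.13; 1.1e-04 and 1.6e-05 without it). The low members Cox7c (0.13 ± 0.32) and Cox6b2 (-0.13 ± 0.41) were too variable to place, with adjusted p = 0.79 and 0.83.

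In complex V, 8 of 15 members rose (15 without Fz7-21S 24 h replicate 4) and 0 fell. The catalytic subunits rose by little: Atp5b stood at 3349, 3388, 3266 and 3453 CPM with dFz7-21 and 3023, 2928, 2977 and 2946 CPM with DMSO (0.18 ± 0.05, adjusted p = 0.0064), and Atp5a1 rose by 0.16 ± 0.05 (adjusted p = 0.012). For Atp5b every dFz7-21 library was above every DMSO library despite the small change. Atp5g1, a low-level gene for subunit c, stood at 8.58, 8.58, 8.95 and 9.66 CPM with dFz7-21 and 6.54, 5.33, 4.68 and 5.85 CPM with DMSO (0.67 ± 0.24, adjusted p = 0.028). The abundant gene for the same protein, Atp5g3, rose by 0.31 ± 0.08 (adjusted p = 0.0023), and Atp5d, the delta subunit of the central stalk, rose by 0.34 ± 0.11 (adjusted p = 0.013). Both members that encode subunit c thus rose, at very different levels. The call of Atp5g1 was lost on leaving out replicate 2 or 3 of DMSO or replicate 4 of dFz7-21 at 24 h (adjusted p = 0.055 to 0.086). Atp5g2, a gene for subunit c under the count threshold, did not rise. It stood at 0.241, 0.392, 0.405 and 0.323 CPM with dFz7-21 and 0.475, 0.333, 0.447 and 0.618 CPM with DMSO.

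Members had a positive median change in each class of gene model length. The median log2 change of members against DMSO at 24 h was 0.27 under 600 bases (28 members), 0.28 from 600 to under 1000 (19), 0.22 from 1000 to under 1500 (13), 0.21 from 1500 to under 2500 (14) and 0.15 from 2500 bases (3). Other genes of the same lengths had medians of 0.02, 0.09, 0.09, 0.06 and -0.05. Gene models can be longer than transcripts. That of Ndufa11, in the longest class, has 2661 bases, while its transcripts hold 1103 different runs of 50 bases. The part of transcript length in the members' change was not tested. Cytosolic ribosome genes, short as well, had a median of -0.02, and 0 of 80 were called by edgeR, or had an unadjusted p under 0.05 (1 up and 6 down without Fz7-21S 24 h replicate 4). Near-identical copies of these ribosome genes were not looked for, so how fully their reads were counted is not known. In the dFz7-21 24 h libraries the median member lay 0.23 to 0.34 above its mean over all libraries, while cytosolic ribosome genes lay at -0.11 to 0.06. Of 1479 other genes under 1000 bases, 231 rose and 82 fell. With a smooth trend on gene length taken out of each library, 52 members rose and 0 fell (median 0.18), as 22.8% of all genes rose. Under that setting Uqcrc2 had an adjusted p of 0.0528.

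**Figure D4:**
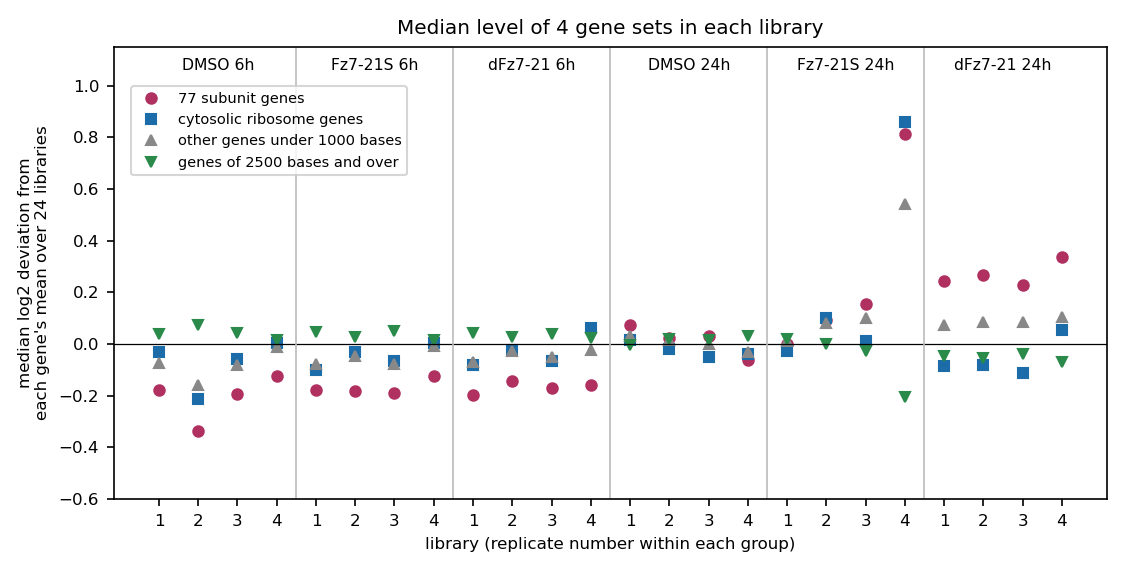
For each library, the median over 4 gene sets of the log2 deviation from the gene's mean over 24 libraries. In Fz7-21S 24 h replicate 4 the members and the cytosolic ribosome genes are high together, whereas in the 4 dFz7-21 24 h libraries the members lie at 0.23 to 0.34 and the ribosome genes at -0.11 to 0.06.

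At 6 h no such difference could be detected. With edgeR 0 of 77 members were called against DMSO (11.0% of all genes tested were), and DESeq2 called 0. The unadjusted p was under 0.05 for 1 member, upward, and for 1897 of all 15429 genes upward and 1695 downward. Without Fz7-21S 24 h replicate 4 edgeR called 1, Cox7a1, against 20% of all genes. With the libraries with mesenchymal transcripts left out too, 0 were called higher. The median log2 change of members was 0.04 (0.02 without that library). Uqcrfs1, for instance, stood at 296, 294, 300.3 and 289 CPM with dFz7-21 and 290.2, 274, 309 and 304 CPM with DMSO, which overlapped, and its 95% interval was -0.17 to 0.17. After Cox7a1, the smallest p at 6 h was that of Ndufa6 (0.13 ± 0.12, adjusted p = 0.59).

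The difference between the times was tested as an interaction. Ndufs3, for one, stood at 6 h from 45 to 49.4 CPM with dFz7-21 and from 45.6 to 52.8 CPM with DMSO, which overlapped, whereas at 24 h its groups were apart. Ndufs3, Uqcrc2 and Uqcrfs1 responded more at 24 h than at 6 h, by a log2 0.41 ± 0.12, 0.20 ± 0.06 and 0.36 ± 0.12 (adjusted p = 0.020, 0.040 and 0.044), and 0 members responded less. The call of Uqcrc2 was lost on leaving out any of 9 single libraries (adjusted p = 0.0526 to 0.0893) and in 4 other settings, such as removing the length trend (up to 0.224), whereas Ndufs3 passed in every setting run. In all, 3 of 77 were called upward, a smaller share than over all genes, where 7.37% of all genes tested were called upward and 5.78% downward. An unadjusted p under 0.05 was reached by 24 members, all upward, and by 2007 of all 15429 genes upward and 1909 downward. Without Fz7-21S 24 h replicate 4, 49 members were called upward and 0 downward (14.3% and 9.61% of all genes). On all libraries DESeq2 called 11 upward, where it called 9.18% of all genes upward. Leaving out 1 library of 6 (DMSO 6 h replicate 1, 3 or 4, dFz7-21 6 h replicate 2 or 4, DMSO 24 h replicate 2) left Ndufs3 alone called, while leaving out DMSO 6 h replicate 2, dFz7-21 24 h replicate 1 or dFz7-21 24 h replicate 3 gave 6, 7 and 10. Over the members the median interaction was 0.20 (0.23 without that library), and over all genes -0.02 (0.02).

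Against Fz7-21S at 24 h the outcome depended on replicate 4. With it, 4 members were higher with dFz7-21 (Ndufs1, Sdha, Uqcrc2 and Cox7a1) and 0 lower, against 16.5% and 17.2% of all genes tested, with a median log2 change of -0.02. Without it, 58 were higher and 0 lower, against 20.7% and 16.5%, with a median of 0.21. In 49 of 77 members every dFz7-21 library was above the 3 other Fz7-21S libraries, against 20% of all genes. For Uqcrc2 the dFz7-21 libraries stood at 468, 495, 448 and 509 CPM and the Fz7-21S libraries at 444, 427, 443 and 423 CPM (0.14 ± 0.05, adjusted p = 0.017). For Ndufs1 they stood at 230.3, 237, 213 and 239.7 and 224, 209.6, 201 and 208 CPM (0.13 ± 0.05, adjusted p = 0.041). Replicate 4 was not high in Ndufs1, Sdha or Uqcrc2, which have gene models of 3021, 2859 and 1882 bases. It was high in other members with long gene models. Ndufa11 (2661 bases) stood at 148 CPM there and at 83.1, 84.3 and 101 CPM in the other Fz7-21S libraries at 24 h. Atp5a1 (2432 bases) stood at 2489 CPM there and at 2106, 2100 and 2158 CPM in the others. At 6 h edgeR called 0 members between dFz7-21 and Fz7-21S, where 7.04% of all genes were called, with 0 at an unadjusted p under 0.05 (3 without Fz7-21S 24 h replicate 4) and 0 by DESeq2. The smallest p-values there were those of Ndufs3 (-0.13 ± 0.08, adjusted p = 0.48) and Cox7a1 (0.25 ± 0.19, adjusted p = 0.56). With only the compared groups in the fit 0 members were called at 24 h, and without dFz7-21 24 h replicate 3 edgeR called 7. This comparison and the one against DMSO share the dFz7-21 libraries.

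Between Fz7-21S and DMSO edgeR called no member at either time. At 24 h edgeR called 0 of 77 (0.259% of all genes tested were called), and DESeq2 called 1 upward (0.655% of all genes). The unadjusted p was under 0.05 for 58 members, all upward, and for 2144 of all 15429 genes upward and 1529 downward. The median log2 change of members was 0.28. Without replicate 4 the median was 0.06, edgeR called 0 (0.261% of all genes), and DESeq2 called 0. There 12 members had an unadjusted p under 0.05 upward and 1 downward, as did 585 and 597 of all 15709 genes. Without Fz7-21S 24 h replicate 1 instead, edgeR called 40 upward and 0 downward, where 880 of 15728 genes (5.6%) were called upward and 510 downward. The smallest p-values belonged to Uqcrq (0.42 ± 0.11, adjusted p = 0.15; 0.19 ± 0.06 and 0.33 without it) and Ndufb4 (0.64 ± 0.19, adjusted p = 0.16). Uqcrq stood at 354, 373, 421 and 639.9 CPM with Fz7-21S and 335, 346, 356 and 302 CPM with DMSO. Its 3 other Fz7-21S libraries lay at the top of the DMSO range or above it, and replicate 4 far above. At 6 h edgeR called 0 (0.00648% of all genes), 0 had an unadjusted p under 0.05 and DESeq2 called 0, with a median log2 change of 0.03 (edgeR also called 0 without Fz7-21S 24 h replicate 4). Cox6b2 (-0.67 ± 0.44) and Cox5b (0.16 ± 0.11) had the smallest p there, both with an adjusted p of 1.0.

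With DMSO alone, some members were higher at 24 h than at 6 h, in a count that depended on which DMSO libraries at 6 h were used. Here 29 of 77 rose and 0 fell (56 and 0 without Fz7-21S 24 h replicate 4), where 27.3% of all genes tested rose and 24.9% fell (29.9% and 30.1% without it). The median log2 change was 0.23 for members and 0.00 for all genes. Ndufb11, an X-linked accessory subunit of complex I, stood at 51.2, 58.5, 54.3 and 54.1 CPM at 24 h and 36.9, 33.8, 38.4 and 40.8 CPM at 6 h (0.54 ± 0.10, adjusted p = 8.6e-05). The libraries of the 2 times were fully apart, while its log2 change with dFz7-21 at 24 h was 0.04 (adjusted p = 0.77). Uqcrc1 and Uqcrfs1, which rose with dFz7-21, had log2 changes over time of 0.05 ± 0.07 and 0.08 ± 0.08 (adjusted p = 0.61 and 0.44). Leaving out the libraries with mesenchymal transcripts, which include 2 of the 4 DMSO libraries at 6 h, left 10 members higher over time, where 21.7% of all genes were, and leaving out DMSO 6 h replicate 2 alone left 18, where 25% of all genes were. In both settings the members' share, 13.0% and 23.4%, was below that of all genes, while the median change of members was 0.18 and 0.19. With these libraries and Fz7-21S 24 h replicate 4 left out together 42 were higher, against 27.1% of all genes. Cell type markers moved over the same time: epithelial markers summed to 9883 to 11336 CPM at 6 h and 6157 to 6626 CPM at 24 h (5 of 6 fell), striated muscle markers to 224 to 289 and 97.6 to 114 CPM, and enterocyte markers to 3095 to 4112 and 3986 to 4829 CPM (5 of 8 rose and 2 fell). Of the stem cell markers 2 of 5 rose, and 3 of the 4 mesenchymal markers tested fell. The part of these changes in the members' result was not tested. The comparison over time and that of dFz7-21 with DMSO share the DMSO 24 h libraries, with opposite sign.

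Summed over members, DMSO at 6 h, DMSO at 24 h, Fz7-21S at 24 h (replicate 4 set aside) and dFz7-21 at 24 h came in that order in every complex, while the order of the 6 h groups differed between complexes. Complex I stood at 4243 ± 215 CPM (SD, n = 4) with DMSO at 6 h, 5077 ± 153 with DMSO at 24 h, 5280 ± 230 in 3 Fz7-21S libraries at 24 h and 5929 ± 171 with dFz7-21 at 24 h. Complex II went from 1251 ± 22.1 through 1469 ± 60.4 and 1505 ± 29.1 to 1739 ± 57.1 CPM in the same order. Each step up from DMSO at 6 h to DMSO at 24 h exceeded the SD of either group. Complex III went from 2103 ± 114 through 2326 ± 72.0 and 2459 ± 102 to 2843 ± 92.3 CPM. Complex IV went from 2557 ± 161 through 2956 ± 123 and 3146 ± 155 to 3516 ± 137 CPM, and complex V from 7594 ± 280 through 8394 ± 184 and 8536 ± 222 to 9737 ± 281 CPM. DMSO and Fz7-21S at 24 h differed by less than their SDs added together in each complex, and dFz7-21 at 24 h lay above Fz7-21S by more than that. At 6 h the means of dFz7-21 and Fz7-21S lay within 1 SD of the DMSO mean in each complex.

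Other genes of the pathway were counted beside the members. Of 13 subunits encoded by mitochondrial DNA, 9 could be tested, and 6 of them rose with dFz7-21 against DMSO at 24 h and 0 fell (6 and 0 without Fz7-21S 24 h replicate 4), with a median log2 change of 0.42. COX1, the catalytic subunit of complex IV, rose by 0.47 ± 0.17 (adjusted p = 0.029) and ND4 of complex I by 0.42 ± 0.13 (adjusted p = 0.017). Against Fz7-21S 0 of the 9 were called by edgeR (1 upward without replicate 4), 0 had an unadjusted p under 0.05, and their median was 0.06. Over time in DMSO their median was -0.30, with 0 up and 1 down, while the nuclear members had a median of 0.23. Reads of these genes were 0.415% to 0.819% of all counts.

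Some electron carriers and citrate cycle enzymes rose as well. Of 8 carriers and further subunits, 5 rose and 0 fell (5 and 0 without replicate 4): Cyc1, cytochrome c1 of complex III, by 0.31 ± 0.05 (adjusted p = 1.6e-05), Cycs, cytochrome c, by 0.75 ± 0.23 (adjusted p = 0.012), and Etfa, Etfb and Etfdh, which bring in electrons from fat oxidation. Of 13 citrate cycle genes, 9 rose and 0 fell (10 and 0 without replicate 4). Mdh2, malate dehydrogenase, rose by 0.45 ± 0.06 (adjusted p = 1.8e-06) and Cs, citrate synthase, by 0.31 ± 0.04 (adjusted p = 3.3e-06).

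Assembly factors and mitochondrial ribosome genes gave few calls on all 24 libraries, and more without Fz7-21S 24 h replicate 4. Of 49 assembly factors 9 rose and 0 fell (21 and 1 without Fz7-21S 24 h replicate 4), and 8 of the 9 were among the 21 factors of complex IV. These include Sco1, a copper chaperone (0.29 ± 0.07, adjusted p = 0.0020), and Cox10, which makes heme O (0.24 ± 0.05, adjusted p = 3.0e-04). The ninth was Ecsit of complex I (0.23 ± 0.06, adjusted p = 0.0020). Of 78 mitochondrial ribosome genes 9 rose and 0 fell (29 and 0), with a median of 0.09. Against 18.2% of all genes called higher, the first count on all libraries is near the background and the second below it. Without Fz7-21S 24 h replicate 4, where 24.8% of all genes were called higher, both sets lie above that share. Both results depended on this library, so nothing is read from them, and whether the shares differ between complexes was not tested.

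Of 12 regulators of mitochondrial biogenesis, 1 rose and 2 fell (2 and 2 without replicate 4). Esrra, a nuclear receptor that acts on many mitochondrial genes, rose by 0.50 ± 0.07 (adjusted p = 2.9e-06). Pprc1, a coactivator, fell by 0.26 ± 0.08 (adjusted p = 0.016) and Gabpb1, a subunit of GABP, fell by 0.16 ± 0.06 (adjusted p = 0.029). Nrf1 had a log2 change of -0.08 ± 0.05 (adjusted p = 0.27) and Yy1 of -0.06 ± 0.06 (adjusted p = 0.43). Of the 6 members printed above with an NRF1 core, Sdhb, Ndufa6 and Ndufa11 rose, and Atp5k, Ndufa8 and Cox6a1 had adjusted p = 0.072, 0.073 and 0.15 (all 6 rose without replicate 4).

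Markers of cell types moved at 24 h as well. All 8 enterocyte markers rose (Alpi, intestinal alkaline phosphatase, by 1.29 ± 0.10), and they summed to 6815 to 8008 CPM with dFz7-21, 3986 to 4829 with DMSO and 4605 to 6132 with Fz7-21S (to 5273 without replicate 4). All 5 stem cell markers fell (Lgr5 from 80.0 to 124.9 CPM with DMSO to 2.0 to 4.77 CPM with dFz7-21), 3 of 4 goblet cell markers rose and all 3 Paneth cell markers fell. Without Fz7-21S 24 h replicate 4 these counts were the same, save that all 4 goblet cell markers rose. At 6 h 4 of 5 stem cell markers had already fallen and 1 of 8 enterocyte markers had risen, while 0 members were called. The part of cell composition in the members' change was not tested. Leaving out dFz7-21 24 h replicate 3 and the other libraries with mesenchymal transcripts left 28 members higher against DMSO at 24 h and 0 lower, where 15.3% of all genes were higher.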

How the data were processed

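RNA of 24 organoid libraries was measured by polyadenylated RNA sequencing. The authors deposited, per the file headers, the count of uniquely aligned reads per Entrez gene and an RPKM value scaled by a size factor. GSNAP and GRCm38 are named per the submitters' processing notes; the sources used here give no version, annotation or strandedness. Symbols came from RefSeq (31049 IDs) and GENCODE (78), and 5401 IDs, with 2.54% to 3.50% of counts, stayed unnamed.

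Counts were tested with edgeR 4.0.16 (quasi-likelihood, robust, TMM, filterByExpr) in 1 fit over the 6 groups in R 4.3.3, with Benjamini-Hochberg adjustment over 15429 genes (15709 without Fz7-21S 24 h replicate 4). The scripts were first tested on simulated data. Alternatives were RLE scaling, no filter, a replicate block, a length trend removed (R's lowess smoother), DESeq2 1.42.0, fewer groups and left-out libraries. Of these, 4 were added after seeing the data. Members, lists and named genes (core subunits, paralogs, the largest called changes per complex and the smallest p per comparison) were chosen with earlier results of these data known. Replicate libraries differed beyond counting noise (chi-square over degrees of freedom 2.77 to 88.9), so all were kept. All 77 members are in the counts and sums, and 1 of them is not reported here by itself.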

Additional observations from a re-analysis of the deposited data

Results flagged for a closer look

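Of 144 groups of 4 libraries examined (24 measures in 6 groups), 24 held a library that stood far from the other 3, where chance alone flags about 1 in 20. In 14 of them it was Fz7-21S 24 h replicate 4. That library had summed levels of 8393, 1920, 3624, 5169 and 11405 CPM for complexes I to V, and members took 2.91% of its counts. It was also apart, at the high side, for Cox7a2 (376 CPM), Cox7a2l (187 CPM), Uqcrfs1 (476 CPM), Ndufb11 (84.5 CPM), Atp5b (3580.2 CPM), Atp5g1 (15.6 CPM), Atp5g3 (1093 CPM) and Cox4i1 (1369 CPM). The other 10 were spread over 7 libraries. DMSO 6 h replicate 2, which holds mesenchymal transcripts, was low for complex V (7179 CPM), Cox7a2l (73.6 CPM), Atp5b (2649 CPM) and Atp5g1 (3.99 CPM). DMSO 24 h replicate 4 was low for complex III (2219 CPM) and DMSO 24 h replicate 1 high for Ndufs3 (57.1 CPM). Sdhb stood at 198 CPM in dFz7-21 6 h replicate 4, Ndufa6 at 155 CPM in Fz7-21S 6 h replicate 2, Ndufb7 at 135 CPM in dFz7-21 24 h replicate 2 and Atp5g3 at 757 CPM in Fz7-21S 6 h replicate 4.

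The effect of dFz7-21 against DMSO differed between the times, by the interaction term of edgeR's fit, for Ndufs3 (0.41 on the log2 scale), Uqcrc2 (0.20) and Uqcrfs1 (0.36). The call of Uqcrc2 was lost on leaving out any of 9 single libraries (adjusted p = 0.0526 to 0.0893). That of Uqcrfs1 was lost on leaving out any of at least 6, where Ndufs3 alone stayed called. The Uqcrfs1 call was also lost without DMSO 24 h replicate 3 and with the replicate block, where 2 members, Ndufs3 and Uqcrc2, were called.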

How the results depend on the processing

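No log2 change of a named member that was called in the main fit or in an alternative changed sign between them. Sign changes where neither fit called the gene were not looked for, and counts of members were compared by size alone. Members higher with dFz7-21 against DMSO at 24 h (34) numbered 52 with the length trend removed, 53 with the replicate block as well, 63 with only the compared groups, and 60, 66, 66 and 68 with Fz7-21S 24 h replicate 4 left out and the length trend removed, RLE, DESeq2 or the mesenchymal libraries left out too. Leaving out 1 library gave 24 to 66 (38 apart from Fz7-21S 24 h replicate 4). At 6 h, 23 libraries gave 1 higher with the length trend removed, RLE and DESeq2, and 1 lower with the first; leaving out 1 gave 0 to 1 higher. Against Fz7-21S at 24 h (4), RLE gave 7, the length trend 33, with the block 33, only the compared groups 0, DESeq2 10, and the same 4 settings without replicate 4 gave 57, 59, 60 and 63; leaving out 1 gave 3 to 58. Lower members there (0) numbered 1 with the length trend, 1 with the block and 0 to 2 on leaving out 1. Fz7-21S against DMSO at 24 h (0) gave 1 with DESeq2 and 0 to 40 on leaving out 1. Over time in DMSO (29), only the compared groups gave 54, the mesenchymal libraries left out 10, and 23 libraries 44, 57 and 57; leaving out 1 gave 18 to 56, and 1 was lower under each length setting. The interaction (3) gave 9 with RLE, 25 with the length trend, 24 with the block, 45 with only the compared groups, 11 with DESeq2, and 37, 47, 49 and 64 without replicate 4; leaving out 1 gave 1 to 49. All-gene shares moved too: over these settings 10.6% to 26.0% of all genes were higher against DMSO at 24 h, 15.5% to 31.0% over time in DMSO and 4.8% to 14.3% in the interaction. The members' share was above that of all genes in all 22 settings for the first, below it in 2 for the second (10 and 18 members) and below it in 16 of 30 for the third. Against Fz7-21S at 24 h, 7.8% to 22.5% of all genes were higher. There the members' share was below that of all genes in 14 of 21 settings, including the main fit (5.2% against 16.5%). With fewer groups or libraries the shared spread differs by construction; other causes were not tested.

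Same-numbered libraries showed little joint deviation (correlations -0.10 to 0.12 over 28 pairs, 11 of them best with their own number). Whether equal numbers share a mouse, culture or batch cannot be told from these values. With the replicate block alone 36 members were higher against DMSO at 24 h, and no count moved by over 1.5 times. A mean count of 100 in place of 20 leaves 75 members. Depth limits the lowest ones, Cox6b2 and Cox7c.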
